A study of Rattus norvegicus with 8 samples.

Results

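Smooth muscle and pericyte genes were described in whole kidneys of 4-week-old HSRA rats, a model of unilateral renal agenesis derived from a heterogeneous stock. The set held 10 genes chosen by name: Acta2, Actg2, Myh11, Tagln, Cnn1, Lmod1 and Des for the contractile apparatus and desmin filament of smooth muscle, and Rgs5, Pdgfrb and Mcam for pericytes. Every probe set annotated to exactly 1 of these symbols was taken. That gave 9 of the 10 genes, each with 1 probe set, out of 17245 genes with a probe set of their own on the array. All 9 passed the filter on dim genes and were among the 13796 genes tested. No probe set carried Acta2 as its only symbol in the annotation used here, so this gene, the most widely used smooth muscle actin marker, was not analysed here.

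The HSRA-S group held 4 animals born with a solitary kidney and the HSRA-C group 4 animals of the same model and age with both kidneys, which the series sets as the control. Both groups carry the HSRA background, so the contrast is between kidney numbers within the model and not against an unrelated strain. RNA from each whole kidney was measured on its own Rat Gene 1.1 ST array, and values are log2 of the deposited RMA intensity. The labels do not give the animals' sex or litter, nor how much of the renal pelvis or hilar vessels was kept with each kidney.

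Vascular smooth muscle cells wrap the renal arteries and arterioles and set their calibre, and a further smooth muscle layer surrounds the renal pelvis, where it drives peristalsis of urine towards the ureter. Pericytes sit on the capillaries and the descending vasa recta, and the mesangial cells of the glomerulus are related to them. Transcription of the contractile genes is driven by serum response factor and its coactivator myocardin through CArG boxes in their promoters, while pericytes are recruited by platelet-derived growth factor B from endothelium acting on the receptor encoded by Pdgfrb. In a bulk sample, fewer cells of a type and less RNA per cell cannot be told apart.

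The promoters of 5 of the 10 genes were in the RefSeq-derived table of assembly GRCr8, and those of Actg2 and Rgs5 are shown because these were the only members whose values did not overlap between the groups, with that of Acta2 as the classical smooth muscle promoter of the set. Each line gives the 250 bases before the annotated start, 5′ to 3′ on the gene's strand. Capitals mark E-boxes (CANNTG), GC boxes (GGGCGG) and near CArG boxes, which have 1 C or G among the 6 middle bases, and no marked motifs overlap.
Actg2: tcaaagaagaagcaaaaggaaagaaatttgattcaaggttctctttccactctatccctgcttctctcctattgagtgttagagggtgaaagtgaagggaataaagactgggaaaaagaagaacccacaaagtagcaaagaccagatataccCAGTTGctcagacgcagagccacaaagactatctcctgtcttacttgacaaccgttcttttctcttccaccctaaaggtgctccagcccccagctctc
Rgs5: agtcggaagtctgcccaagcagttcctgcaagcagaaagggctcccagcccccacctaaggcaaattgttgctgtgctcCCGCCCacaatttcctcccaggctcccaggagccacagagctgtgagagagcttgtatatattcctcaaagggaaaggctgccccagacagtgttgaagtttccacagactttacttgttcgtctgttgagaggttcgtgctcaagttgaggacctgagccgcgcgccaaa
Acta2: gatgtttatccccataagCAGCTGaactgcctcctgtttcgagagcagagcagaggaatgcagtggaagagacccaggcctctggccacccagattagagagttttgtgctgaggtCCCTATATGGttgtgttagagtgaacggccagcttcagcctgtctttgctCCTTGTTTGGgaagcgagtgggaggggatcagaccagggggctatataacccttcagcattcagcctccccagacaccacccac
These windows lie at chr4:117594040-117594289 on the minus strand for Actg2, at chr13:84380827-84381076 on the plus strand for Rgs5 and at chr1:241172504-241172753 on the minus strand for Acta2. Acta2 held 2 near CArG boxes, starting 134 and 84 bases before the annotated start, and 1 E-box. Actg2 held 1 E-box, 98 bases before its start, and Rgs5 held 1 GC box, 171 bases before its start. Both strands were searched for every motif. An exact CArG box was found in 0 of the 5 promoters, which also included Cnn1 and Des, and in 1.5% of all 33469 promoters of the same length. Near CArG boxes occurred in 6.84% of all promoters, E-boxes in 65.5% and GC boxes in 30.5%. These matches describe the letters of the windows only.

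No common direction was seen among the contractile members, whereas the pericyte members were all on the lower side. Of the 6 contractile members measured, 4 were higher and 2 lower in HSRA-S, with a median log2 difference of 0.068, while all 3 pericyte members were lower, with a median of -0.16. Over all 13796 genes the median difference was 0.015, with 55.5% of genes higher and 44.5% lower. None of the 9 members passed limma's test, 0 at an adjusted p under 0.05, as for the whole array (0 genes, or 0% of those tested). At an unadjusted p under 0.05, Rgs5 and Pdgfrb were lower, where 4.69% of all genes were, and Actg2 was higher, where 7.36% of all genes were. With 9 members these counts are too small to be read against the background. The difference between the contractile and the pericyte members was not tested, because the members were chosen with earlier results known.

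**Figure D1:**
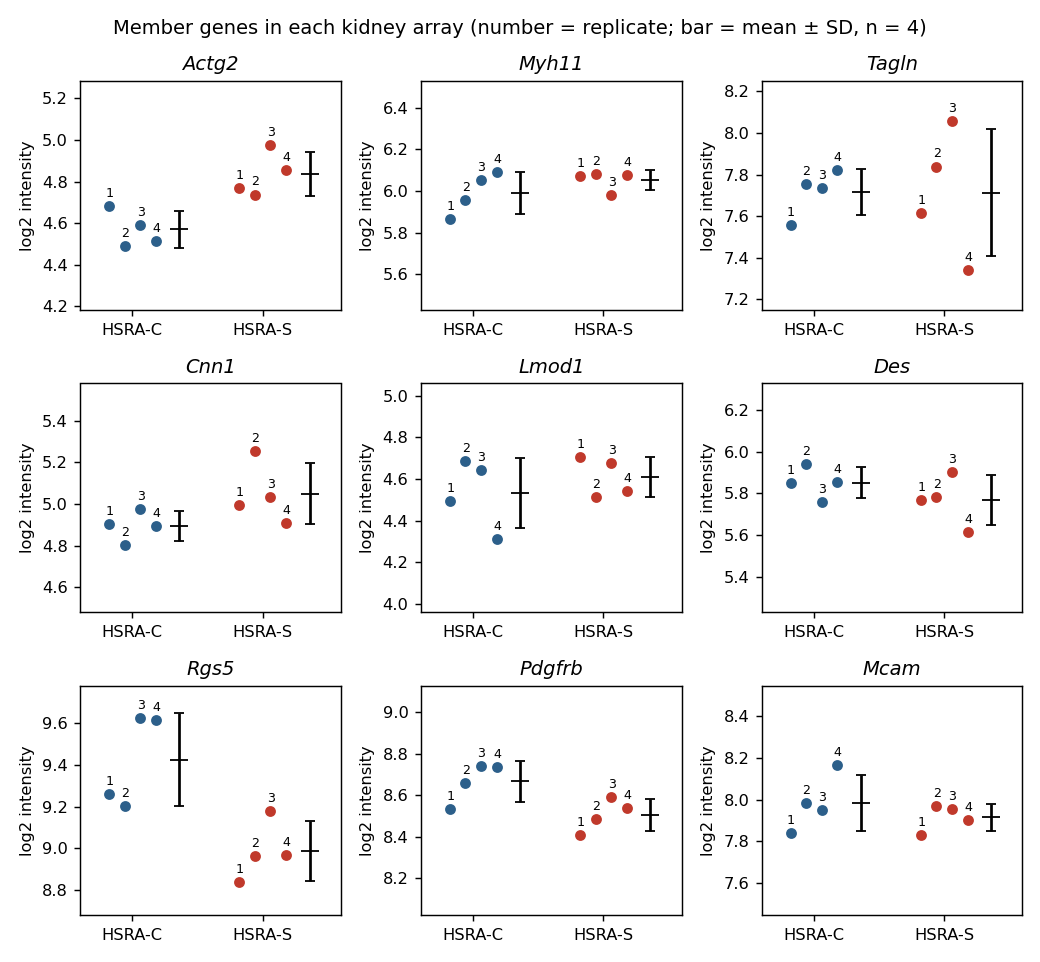
Log2 intensity of the 9 measured members in each array, with HSRA-C (blue) and HSRA-S (red) side by side, replicate numbers beside the points and the mean ± SD of 4 arrays beside each group; every panel spans the same log2 range. Rgs5 and Actg2 are the panels in which the groups do not overlap, with Rgs5 lower and Actg2 higher in HSRA-S.

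Rgs5 encodes a regulator of G protein signalling that shortens signals from vasoconstrictor receptors and is a widely used pericyte marker (probe set 10765437). Its log2 level was 8.84, 8.96, 9.18 and 8.97 in HSRA-S replicates 1 to 4, and 9.26, 9.20, 9.62 and 9.62 in HSRA-C replicates 1 to 4. Every solitary kidney lay below every control kidney, though HSRA-S replicate 3 and HSRA-C replicate 2 were only narrowly apart, and HSRA-C replicates 3 and 4 stood above the rest. The level was 1.36-fold lower in HSRA-S, at 8.99 ± 0.14 against 9.43 ± 0.23 (SD, n = 4 each). The log2 difference was -0.44 (SE 0.12, 95% interval -0.70 to -0.18), with a limma adjusted p of 0.331 over all genes, and it ranked 136th among the 13796 genes by p. Groups that did not overlap, with HSRA-S lower, were found for 2.17% of all genes. Leaving out HSRA-C replicates 3 and 4, the highest in Rgs5, had to shrink the difference and left only HSRA-C replicates 1 and 2 as controls. Without HSRA-C replicates 3 and 4 the difference was -0.25 (limma unadjusted p = 0.0443, adjusted p = 0.977). That adjusted value was also the smallest of any gene in the fit on the remaining arrays, so it is not particular to Rgs5.

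Pdgfrb, the receptor for platelet-derived growth factor B on pericytes and mesangial cells (probe set 10802040), was 8.41, 8.48, 8.59 and 8.54 in HSRA-S and 8.53, 8.66, 8.74 and 8.74 in HSRA-C, each in the order of replicates 1 to 4. The groups overlapped through HSRA-C replicate 1, which lay below HSRA-S replicates 3 and 4. The difference was -0.16 (SE 0.070, 95% interval -0.32 to -0.0051; limma adjusted p = 0.404), and it was -0.089 without HSRA-C replicates 3 and 4.

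Mcam, the adhesion molecule CD146 of pericytes, smooth muscle and endothelium (probe set 10909446), was 7.83, 7.97, 7.96 and 7.90 in HSRA-S and 7.84, 7.99, 7.95 and 8.16 in HSRA-C. These ranges nearly coincided apart from the single high value of HSRA-C replicate 4. The difference was -0.070 (SE 0.077; limma adjusted p = 0.744), and it took the opposite sign, at 0.0018, without HSRA-C replicates 3 and 4. The 95% interval from -0.24 to 0.10 leaves room for a difference in either direction.

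Among the contractile members, Actg2 stood apart. It encodes the gamma actin of visceral smooth muscle, as in the wall of gut, bladder and ureter (probe set 10863549). Its log2 level was 4.77, 4.74, 4.98 and 4.86 in HSRA-S replicates 1 to 4, and 4.68, 4.49, 4.59 and 4.52 in HSRA-C. All solitary kidneys lay above all control kidneys, with HSRA-C replicate 1 closest to the HSRA-S range. The level was 1.20-fold higher in HSRA-S, 4.83 ± 0.11 against 4.57 ± 0.087 (SD, n = 4 each), with a log2 difference of 0.27 (SE 0.073, 95% interval 0.10 to 0.43; limma adjusted p = 0.331). It ranked 193rd by p, and 4.12% of all genes had groups that did not overlap with HSRA-S higher. Without HSRA-C replicates 3 and 4 the difference was 0.25.

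The Actg2 values lay at or below the array medians over all probe sets, which were 4.94 to 5.01, a range in which RMA compresses differences. The muscle actins are nearly identical in their coding sequence, and the probe sequences were not used here, so signal from the other actins in this probe set was not tested. The skeletal actin Acta1 was at 5.27 to 5.39 in HSRA-S and 5.04 to 5.31 in HSRA-C, a difference of 0.14 (SE 0.070; limma adjusted p = 0.457). The cardiac actin Actc1 was at 4.66 to 4.81 and 4.46 to 4.77, a difference of 0.11 (SE 0.076; limma adjusted p = 0.576).

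For the remaining contractile members the 95% interval of the difference included 0. Cnn1, the actin-binding calponin of differentiated smooth muscle (probe set 10908596), was 4.996, 5.25, 5.03 and 4.91 in HSRA-S and 4.90, 4.80, 4.98 and 4.89 in HSRA-C. In 3 of the 4 solitary kidneys it was above every control, and HSRA-S replicate 4 lay within the control range. The difference was 0.15 (SE 0.081, 95% interval -0.026 to 0.33; limma adjusted p = 0.469).

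Tagln, the actin-binding transgelin or SM22 alpha (probe set 10917034), had the widest spread among the solitary kidneys of any member. It was 7.62, 7.84, 8.06 and 7.34 in HSRA-S and 7.56, 7.75, 7.74 and 7.82 in HSRA-C. The solitary kidneys held both the highest and the lowest value of the 8 arrays, and their SD was 0.31 against 0.11 in the controls. The difference was -0.0041 (SE 0.14, 95% interval -0.31 to 0.30), so a change of up to about these bounds in either direction could not be resolved.

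Myh11, the smooth muscle myosin heavy chain and the most specific protein of the lineage (probe set 10731247), was 6.07, 6.08, 5.98 and 6.08 in HSRA-S and 5.87, 5.96, 6.05 and 6.09 in HSRA-C. The solitary kidneys lay wholly within the control range. Its difference was 0.060 (95% interval -0.088 to 0.21), and 0.14 without HSRA-C replicates 3 and 4. Lmod1, the leiomodin that nucleates actin filaments in smooth muscle (probe set 10764214), ranged from 4.51 to 4.70 in HSRA-S and from 4.31 to 4.69 in HSRA-C. Des, the intermediate filament desmin of muscle, pericytes and injured podocytes (probe set 10924507), ranged from 5.61 to 5.90 and from 5.76 to 5.94. Lmod1 and Des overlapped between the groups, with differences of 0.076 (95% interval -0.13 to 0.28) and -0.083 (95% interval -0.25 to 0.082).

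**Figure D2:**
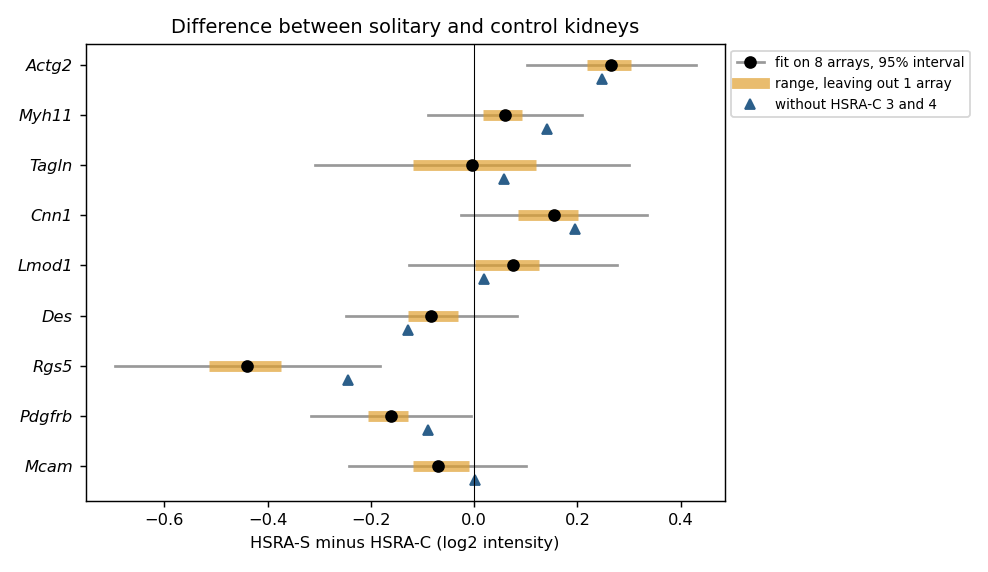
Log2 difference HSRA-S minus HSRA-C for each member, with the fit on all 8 arrays and its 95% interval (black point, grey line), the range when any 1 array was left out (orange) and the value without HSRA-C replicates 3 and 4 (blue triangle). The intervals of Actg2, Rgs5 and Pdgfrb exclude 0 before adjustment for the number of genes. The triangle of Rgs5 sits at -0.25, beside a range of -0.51 to -0.37 with any 1 array left out. HSRA-C replicates 3 and 4 hold the highest Rgs5 values, so leaving them out had to bring the difference closer to 0.

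The members did not vary as a single block across the 8 arrays. Among the 15 pairs of contractile members Pearson's r ran from -0.55 to 0.71, and between contractile and pericyte members from -0.60 to 0.48. The closest of all 36 pairs was Rgs5 with Pdgfrb (r = 0.92, exact permutation p = 0.00196, adjusted p = 0.0705 over the 36 pairs; Spearman's rho = 0.86, exact permutation p = 0.0107, adjusted p = 0.386; n = 8). Without HSRA-C replicates 3 and 4, which were also the arrays farthest from the median of Rgs5, r was 0.78. No pair passed the adjusted threshold, 0 of 36, and 2 pairs had an unadjusted exact permutation p under 0.05. The points of each pair share the array and its tissue composition.

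The 2 arrays highest in Rgs5 and Pdgfrb, HSRA-C replicates 3 and 4, were also the highest in medullary markers: the mean of the 11 tested medulla and collecting duct genes was 8.65 and 8.79 in these arrays, 7.74 and 8.05 in the other controls, and 8.27, 8.19, 8.21 and 7.37 in HSRA-S replicates 1 to 4. The summed intensity of that list ran from 2933 to 4824 in HSRA-S and from 3522 to 7307 in HSRA-C, and 10 of its 11 genes were lower in HSRA-S, but 5 of 11 without those arrays. Proximal tubule genes, a mark of cortex, had 13 of 16 tested genes higher in HSRA-S, with a median of 0.18. The median was 0.056 without HSRA-C replicates 3 and 4 and 0.085 with the medullary mean as a covariate. At an unadjusted p under 0.05, 5 were higher and 1 lower, against 7.36% and 4.69% of all genes, and 0 passed limma's adjusted threshold. These 6 genes became 2 without those arrays and were 6 with the covariate. In 4 of the 16 the groups did not overlap, with HSRA-S higher, against 4.12% of all genes. Slc14a2, the urea transporter of the inner medulla, differed by -1.19 (SE 0.80), by -0.54 without HSRA-S replicate 4 and by 0.17 without HSRA-C replicates 3 and 4. Aqp4, a basolateral water channel of the collecting duct, differed by -0.58 (SE 0.46), by -0.25 without HSRA-S replicate 4 and by 0.084 without HSRA-C replicates 3 and 4. Within HSRA-C both measures rose in the same order, with pericyte means of 8.54, 8.62, 8.77 and 8.84 in replicates 1 to 4. Within HSRA-S the order of the arrays differed between the measures. There, replicate 1 had the highest medullary mean and the lowest pericyte mean, 8.36. HSRA-S replicate 4 had the lowest medullary mean and a pericyte mean of 8.47, as in replicate 2. With the medullary mean as a covariate the Rgs5 difference was -0.37 (limma adjusted p = 0.372) and that of Pdgfrb -0.14 (limma adjusted p = 0.527), and Tagln turned to 0.097.

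**Figure D3:**
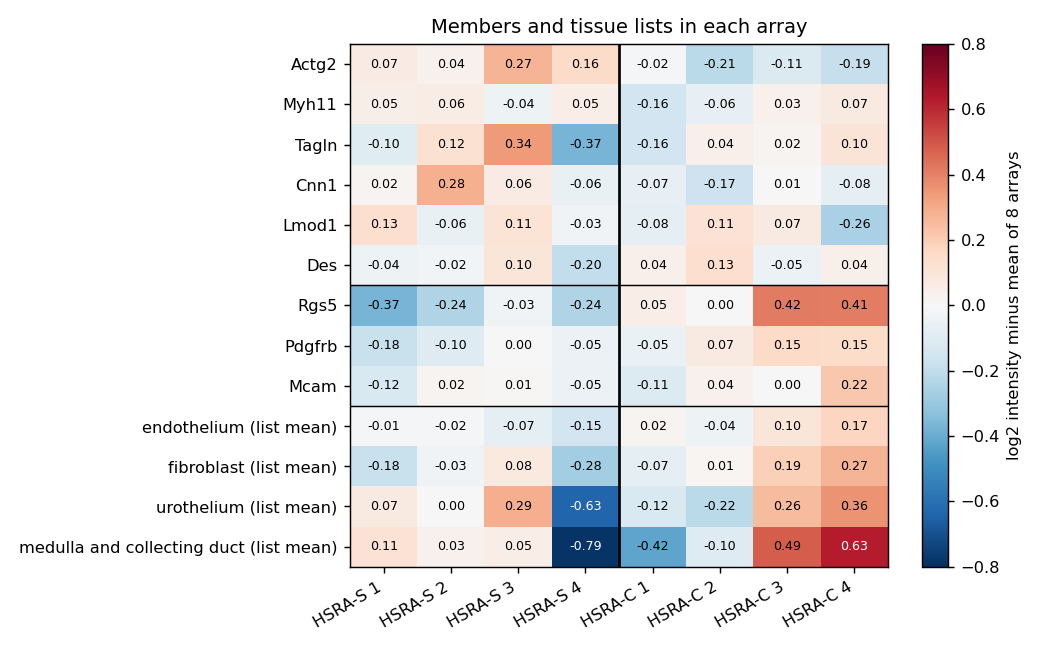
Log2 intensity minus the mean of 8 arrays for the 9 members and for the mean of 4 tissue lists (rows) in each array (columns, HSRA-S left and HSRA-C right of the line), in red above and blue below the mean. HSRA-C 3 and HSRA-C 4 are high in Rgs5, Pdgfrb and all 4 tissue lists, while the contractile rows show no common pattern.

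Endothelial and fibroblast markers were also lower in HSRA-S beside the pericyte members. Of 15 tested endothelial genes 13 were lower, with a median of -0.15 and a summed intensity of 3343 to 3773 in HSRA-S against 3622 to 4187 in HSRA-C. Cdh5, the endothelial cadherin, was lower by 0.21 (SE 0.061). Cdh5, Robo4 and Sox17 did not overlap between the groups, 3 of the 15 genes, against 2.17% of all genes. For Sox17 the gap was narrow, with HSRA-S replicate 3 at 6.38 and HSRA-C replicate 2 at 6.42, while HSRA-C replicate 4 stood highest at 7.02. Of 16 tested fibroblast genes 12 were lower, with a median of -0.17 and a summed intensity of 5128 to 6973 against 6741 to 7931. The proteoglycan Dcn was lower by 0.43 (SE 0.098). No gene of either list passed limma's test, 0 at an adjusted p under 0.05, with 4 endothelial and 5 fibroblast genes lower at an unadjusted p under 0.05, against 4.69% of all genes. Without HSRA-C replicates 3 and 4 the medians were -0.056 for endothelium and -0.073 for fibroblasts, with 10 of 15 and 11 of 16 genes lower. Pecam1 was not analysed here. The only covariate fitted was the medullary mean, and none was fitted for endothelium or fibroblasts. The part of endothelium, fibroblasts and medulla in the pericyte differences was not tested.

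Beyond the 3 members, a wider pericyte and mesangial list also had most genes lower. It was not limited to markers of these cells, since it held the ligands Pdgfa, Pdgfb, Pdgfc and Pdgfd, and it shared Gata3 with the urothelial list. Of 28 tested genes 21 were lower in HSRA-S and 7 higher, with a median of -0.18, and 0 passed limma's adjusted threshold. At an unadjusted p under 0.05, 9 were lower, against 4.69% of all genes, and 1 was higher, against 7.36%. Tbx3, a T-box repressor of the ureteric and vascular mesenchyme, was 1.46-fold lower without overlap between the groups (log2 difference -0.54, SE 0.17). Its level was 6.12, 6.09, 6.71 and 6.84 in HSRA-C replicates 1 to 4, and at most 6.03 in HSRA-S. Among all genes, groups without overlap were found for 2.17% with HSRA-S lower and 4.12% with HSRA-S higher. Rgs4, a further regulator of G protein signalling, was lower by 0.31 (SE 0.099) and Vtn, the matrix protein vitronectin, by 0.25 (SE 0.085). Vtn was dim, at 4.16 to 4.54 in HSRA-S and 4.50 to 4.63 in HSRA-C. Angpt1, the angiopoietin that mural cells secrete to steady the endothelium, was 1.30-fold higher without overlap (0.37, SE 0.093; limma adjusted p = 0.331). Without HSRA-C replicates 3 and 4 the list had 23 of 28 genes lower, with a median of -0.080 and 1 gene at an unadjusted p under 0.05. Higd1b and Postn were among 3 genes of the list too dim to be tested.

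The partners of Pdgfrb were chosen after their values were seen. Of its ligands, Pdgfb was at a difference of 0.027 (SE 0.091) and Pdgfd at -0.22 (SE 0.13). The ligands of the alpha receptor, Pdgfa and Pdgfc, were at -0.21 (SE 0.13) and 0.12 (SE 0.10). The pericyte proteoglycan Cspg4, known as NG2, was at -0.28 (SE 0.12), and Notch3, the Notch receptor of mural cells, at -0.25 (SE 0.10). All 6 are part of the pericyte and mesangial list above, so they add no separate evidence, and all overlapped between the groups.

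**Figure D4:**
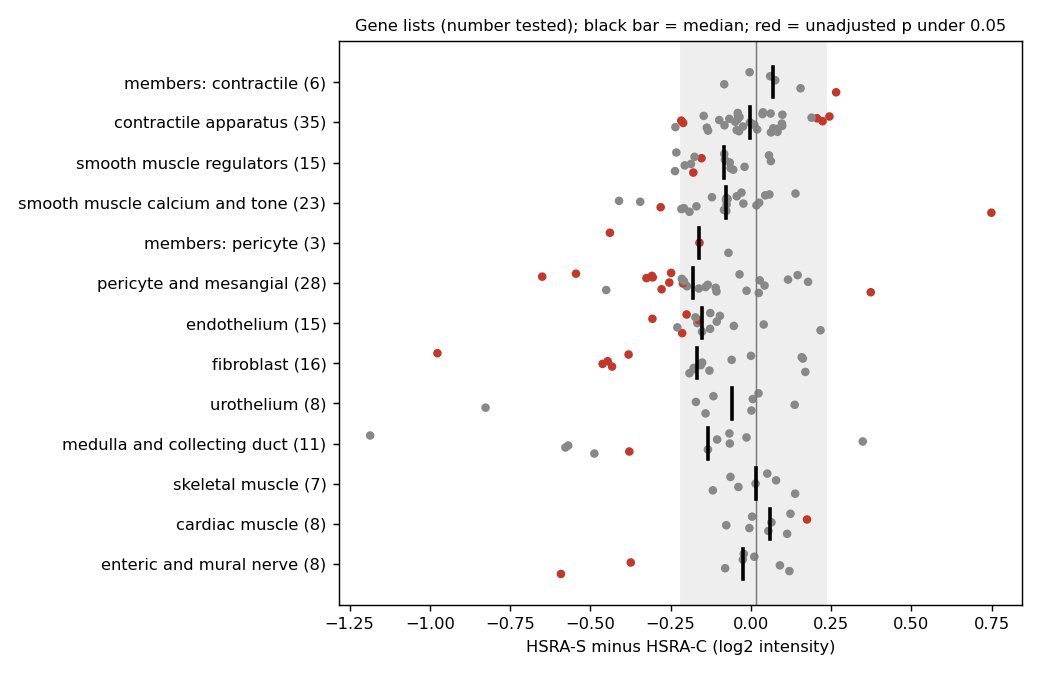
Log2 difference HSRA-S minus HSRA-C of each tested gene (points, red at an unadjusted p under 0.05) in the contractile, pericyte and tissue lists, with the list median as a black bar, the median of all genes tested as a grey line and the 5th to 95th percentile of all genes (-0.22 to 0.23) shaded. The contractile lists centre on or near the grey line, while the medians of the pericyte, endothelial and fibroblast lists lie between -0.18 and -0.15.

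The wider contractile apparatus was evenly split. Of 35 tested genes of myosin light chains, tropomyosins, calponin-like and focal adhesion proteins, 17 were higher and 18 lower in HSRA-S, with a median of -0.0027. At an unadjusted p under 0.05, 3 were higher and 2 lower, against 7.36% and 4.69% of all genes, and 0 passed limma's adjusted threshold. The PDZ-LIM protein Pdlim3 was higher by 0.22 (SE 0.084) without overlap, as were 4.12% of all genes. Pdlim3 was dim, at 4.10 to 4.39 in HSRA-S and 3.84 to 4.08 in HSRA-C, where RMA compresses differences. Ppp1r14a, the inhibitor CPI-17 of myosin phosphatase, was higher by 0.21 (SE 0.079). Pdlim7, a further PDZ-LIM protein, was lower by 0.22 (SE 0.079), and Myl9, the regulatory light chain of smooth muscle myosin, by 0.21 (SE 0.092). Without HSRA-C replicates 3 and 4, 13 of the 35 genes were lower and the median was 0.037.

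Regulators of the smooth muscle programme were mostly lower by small amounts. Of 15 tested genes 13 were lower, with a median of -0.083, and 0 passed limma's adjusted threshold, with 2 lower at an unadjusted p under 0.05, against 4.69% of all genes. Smo, the transducer of hedgehog signals that pattern ureteric mesenchyme, was lower by 0.15 (SE 0.060) without overlap, as were 2.17% of all genes. Bmp4, a growth factor for smooth muscle around the ureter, was lower by 0.18 (SE 0.079). Tshz3, a zinc finger factor needed for ureteric smooth muscle, was at -0.23 (SE 0.11) and Meis2, a homeobox cofactor, at -0.19 (SE 0.094). The higher genes were Myocd, the gene of myocardin, at 0.062 (SE 0.098) and Srf, the gene of serum response factor, at 0.056 (SE 0.085). Tbx18, a mark of ureteric mesenchyme, was below the filter on dim genes, at 3.30 to 3.62 in HSRA-S and 3.23 to 3.51 in HSRA-C. Without HSRA-C replicates 3 and 4, 9 of the 15 genes were lower and the median was -0.035.

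Genes of smooth muscle calcium handling and tone had 17 of 23 tested members lower, with a median of -0.076. Adra1a, an alpha-1 adrenergic receptor, stood on the other side, 1.68-fold higher, at 6.70 ± 0.23 in solitary against 5.95 ± 0.37 in control kidneys (SD, n = 4 each) (limma adjusted p = 0.331). The groups did not overlap, as for 4.12% of all genes with HSRA-S higher, but HSRA-S replicate 4, at 6.42, nearly met HSRA-C replicate 2, at 6.40. HSRA-C replicates 3 and 4 were the lowest, at 5.64 and 5.67. Cav1, the caveolar coat protein, was lower by 0.28 (SE 0.10), Agtr1a, an angiotensin receptor, by 0.19 (SE 0.088) and Cacna1c, the pore of the L-type calcium channel, by 0.22 (SE 0.11). No gene of the list passed limma's adjusted threshold, 0 of 23, and Adra1a and Cav1 were the 2 at an unadjusted p under 0.05, where 7.36% of all genes were higher and 4.69% lower. The list had 16 of 23 genes lower, with a median of -0.059, without HSRA-C replicates 3 and 4.

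Markers of the renal pelvis and of other muscle were examined beside Actg2. Urothelial markers, which would accompany pelvic tissue, had 4 of 8 tested genes higher and 4 lower, with a median of -0.058 and 0 at an unadjusted p under 0.05. The median turned to 0.10 without HSRA-C replicates 3 and 4, with 1 of 8 genes lower, and to 0.077 with the medullary covariate, with 2 of 8 lower, which is the direction of Actg2. Upk3a, an uroplakin, differed by 0.024 (SE 0.084). The summed urothelial intensity was 461 to 828 in HSRA-S and 601 to 1048 in HSRA-C. Much of it came from Gata3, which is also in the pericyte and mesangial list, and from Psca. Gata3 was at 282 in HSRA-S replicate 4 and 481 in HSRA-C replicate 4, and Psca at 28.6 and 240. Upk3a stayed between 29.7 and 38.4 in all arrays. The uroplakin Upk1a, Krt15 and Sprr1a also entered the sum and are not given here. The part of uroplakins in the sum can therefore not be read from Upk3a. Within HSRA-S the sum was highest in replicate 3, which was also highest in Actg2, and lowest in replicate 4, which came next in Actg2. Skeletal muscle markers had 4 of 7 genes higher, with a median of 0.014. That median turned to -0.036 without HSRA-C replicates 3 and 4 and to -0.0060 with the covariate. Cardiac muscle markers had 6 of 8 higher, with a median of 0.059 and the natriuretic peptide Nppa at 0.17 (SE 0.066). Both lists were dim, with array means of 4.28 to 4.42 and 4.10 to 4.21. Nppa, at a mean of 3.80 in HSRA-S and 3.62 in HSRA-C, passed the filter on dim genes only through HSRA-S. Its difference was therefore not read as a result. Markers of interstitial cells and nerves, as found in the pelvic wall, had 3 of 8 genes higher and a median of -0.024, which turned to 0.043 without HSRA-C replicates 3 and 4. Of these, Kit (-0.37, SE 0.084) and Ano1 (-0.59, SE 0.14) were lower without overlap, as were 2.17% of all genes. Chrm2, counted among the higher genes, also passed the filter only through HSRA-S, at a mean of 3.74 against 3.62 in HSRA-C. In none of these 4 lists did a gene pass limma's adjusted threshold, 0 of 31. The part of pelvic tissue in the Actg2 difference was not tested.

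Genes outside the set whose level followed the members most closely were sought over the 8 arrays. Closest to the mean of the 6 contractile members were Ftl1, the ferritin light chain (r = 0.98), Tnfrsf9, a costimulatory receptor (r = 0.98), Col11a1, a fibrillar collagen (r = 0.97), Rnft1, Mettl13, Lcp2, Hmgb2 and Smim26, down to r = 0.94 for Smim26. Their adjusted exact permutation p over 13787 genes lay between 0.342 and 0.783. Closest to the mean of the 3 pericyte members were Alx1, a homeobox factor (r = 0.99), Sdc3, a syndecan (r = 0.99), Slit1, a guidance ligand (r = 0.98), Plagl1, Gpc3, a glypican, Grik5, Spry1 and Tmem132a, down to r = 0.97, each with an adjusted exact permutation p of 0.0806. Spearman's rho was 0.83 to 1.0 for these 16 genes, and without HSRA-C replicates 3 and 4 r was 0.89 to 0.98. The 2 arrays farthest from the median of the member mean were also left out. For the pericyte genes these were HSRA-C replicates 3 and 4 themselves, so this was the same check, with r of 0.89 to 0.98. For the contractile genes r was then 0.74 to 0.99, lowest for Lcp2 at 0.74, Smim26 at 0.79 and Rnft1 at 0.81. With 8 arrays and 13787 genes compared, values this high are the top of a long list, and none passed the adjusted threshold.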

How the data were processed

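Whole-kidney RNA of 4 HSRA-S and 4 HSRA-C rats was measured on 1 array each. The values deposited by the authors are probe set intensities on a linear scale, made with RMA per the submitters' processing notes, with software and version not given in the sources used here. Log2 was taken before any test, whereas the design had assumed log2 values in the file. RMA sets the arrays' distributions equal and compresses dim values. All 8 columns were used (0 left out), and their log2 medians were 4.94 to 5.01. Arrays correlated at 0.987 to 0.995. The labels call the samples biological replicates. Precision is limited by the 4 arrays per group.

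Genes were named from probe sets with 1 symbol (18644, against 962 with several and 9608 with none), of which 18460 matched RefSeq of GRCr8 by gene ID. The brightest probe set of a gene was used. The dimmest 20% of genes (3449, below a log2 mean of 3.63) were left out. The groups were compared with limma 3.58.1 in R 4.3.3 (lmFit and eBayes, group as the only term), two-sided, with Benjamini-Hochberg adjustment over 13796 genes at 0.05. Differences are HSRA-S minus HSRA-C on the log2 scale. Pearson and Spearman correlations over 8 arrays were tested by exact two-sided permutation. The fit was tested on simulated data.

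The members and gene lists were chosen with earlier results of these data known. Genes named are all members, up to 4 genes of smallest p per list, 12 genes set by name and the 8 most correlated with each member group. Robo4, Sox17, Kit, Ano1 and Adra1a fall under the list rule, and the PDGF ligands, Cspg4 and Notch3 outside it. Alternatives were other filters, probe set rules, variance models, scalings, samples left out and a medullary covariate. List counts without HSRA-C replicates 3 and 4 and with the covariate, and the Slc14a2 and Aqp4 values with arrays left out, were added after seeing the data. Of the genes set by name, Pecam1 was not analysed here and 1 other is not reported here.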

Additional observations from a re-analysis of the deposited data

Results flagged for a closer look

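Each group of 4 arrays was examined for a value far from the other 3, for the members and the other genes chosen by the naming rule, 124 groups of 62 genes in all. In 3 groups the gap to the nearest array, divided by the group's range, was above Dixon's 95% critical value, where chance flags about 1 group in 20. Among the members, Myh11 in HSRA-S replicate 3 was at 5.98, below 6.07 to 6.08 in the other solitary kidneys (ratio 0.903). Its gap is small in absolute terms because these 3 arrays nearly coincide. Slc14a2 in HSRA-S replicate 4 was at 4.44, far below 6.85 to 7.22 in the rest of its group (ratio 0.864). Chrm3, a muscarinic receptor, was at 5.92 in HSRA-C replicate 2, below 6.26 to 6.33 in the other controls (ratio 0.832).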

How the results depend on the processing

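No member passed the adjusted threshold under any of the alternatives run, 0 in each. Over all genes 0 passed, except 1 gene, no member, without the dimmest 50% of genes, with an intensity trend and with array weights. Rgs5, Pdgfrb, Des, Actg2, Cnn1, Lmod1 and Myh11 kept their direction in all alternatives that tested them (20 for Actg2, Cnn1 and Lmod1, which fall among the dimmest 50%, and 21 for the others). Rgs5 ran from -0.51 to -0.25 and Actg2 from 0.22 to 0.30. Cnn1 was 0.086 without HSRA-S replicate 2, Des -0.032 without HSRA-S replicate 4, Myh11 0.018 without HSRA-C replicate 1 and Lmod1 0.0022 without HSRA-C replicate 4. Mcam turned to 0.0018 without HSRA-C replicates 3 and 4. Tagln turned to 0.058 with array weights, 0.0020 with equal array medians, 0.057 without HSRA-C replicates 3 and 4 and 0.097 with the medullary covariate, and ran from -0.12 to 0.12 with 1 array left out. The median of the 9 measured members, -0.0041, was -0.077 without the dimmest 50% of genes and 0.071 with the covariate, and ran from -0.084 without HSRA-S replicate 3 to 0.052 without HSRA-S replicate 4. That of the contractile members was -0.0041 without the dimmest 50% of genes, with 3 members left. Genes at an unadjusted p under 0.05 numbered 1663, 2573 over all probe sets, 669 without HSRA-C replicates 3 and 4, and 1010 (without HSRA-C replicate 3) to 1942 with 1 array left out. The causes were not tested, except that fewer genes or samples enter where some are left out. With the replicate number as a block 1586 genes had an unadjusted p under 0.05 and Rgs5 had an adjusted p of 0.220 in limma. Same-numbered samples did not deviate together (correlations -0.11 to 0.13), and 1 of 4 HSRA-S samples correlated best with its own number, so the numbers were not taken to pair the samples.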
